A study of Mus musculus with 2 samples.

Results

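Classical monocytes are the Ly6C-high, CCR2-positive monocytes of mouse blood and tissue. Here they were the barcodes of 2 lung single-cell libraries that met a rule on measured transcripts. A barcode needed at least 500 unique molecular identifiers (UMIs, counts of single captured transcripts), 200 genes and at most 20% mitochondrial UMIs. S100a8 plus S100a9 had to be under 3% of its UMIs, and it needed at least 2 UMIs of Ly6c2 and at least 3 of the 7 genes Ccr2, Vcan, F13a1, Ms4a4c, Fn1, Plac8 and Csf1r. C1qa, C1qb and C1qc together could have at most 2 UMIs, and Cd3e, Cd79a, Ncr1, Siglech and Cdh5 had to be at 0. The rule took 382 of 13720 filtered barcodes in the 1V209-Cho-Lip library and 387 of 14560 in the PBS library, 769 of 28280 in all.

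Both groups were female Balb/C mice carrying orthotopic K7M2 osteosarcoma, a mouse bone tumour line that spreads to the lung and whose grafts the series text calls xenografts. One group received 1V209-Cho-Lip, which the series title describes as a nanomedicine of an agonist of Toll-like receptor 7 (TLR7), and the other received PBS. Lungs of 3 mice were pooled into 1 library for each group, so single mice cannot be told apart. Dose, route, time and age were not given in the sources used here. With 1 library per group no test between groups exists: every interval below is an exact 95% interval that covers counting error only, and a response to treatment and a difference between the 2 libraries cannot be told apart.

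Classical monocytes leave the bone marrow through CCR2, circulate briefly, and enter inflamed or tumour-bearing tissue. There they can become macrophages or dendritic-like cells, while others lose Ly6C and become nonclassical monocytes that patrol vessel walls. TLR7 is an endosomal receptor for single-stranded RNA that signals through MyD88 to NF-kB and interferon regulatory factors. Its agonists are known for inducing inflammatory cytokines and type I interferon, whose target genes carry interferon-stimulated response elements.

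Not every barcode of the rule had a monocyte's transcripts. The leukocyte adaptor genes Tyrobp and Fcer1g, which myeloid cells express highly, were nearly absent from a group of large barcodes. Barcodes with at least 5 UMIs of Col1a1, Col1a2 and Col3a1, or without a UMI of Tyrobp or of Fcer1g, numbered 36 in the 1V209-Cho-Lip and 55 in the PBS library. They had a median of 27549 and 54889 UMIs and held 33.7% of the rule's UMIs in 1V209-Cho-Lip and 57.4% in PBS. In them Def8 was at 9646 CPM in 1V209-Cho-Lip and 17286 CPM in PBS, where CPM is a gene's UMIs when the UMIs of all summed cells are scaled to 1000000. Tyrobp was at 132 and 53.1 CPM, and Ccr2 at 18.3 and 5.67 CPM. The other 346 and 332 barcodes, here called 1V209 monocytes and PBS monocytes, had Tyrobp at 3481 and 3819 CPM, Ccr2 at 748 and 641 CPM and Def8 at 73.7 and 124 CPM. The values below are from these 678 cells. This division was made after the data had been seen, and the counts and medians over all 769 barcodes stand beside it because several of them turn.

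**Figure D1:**
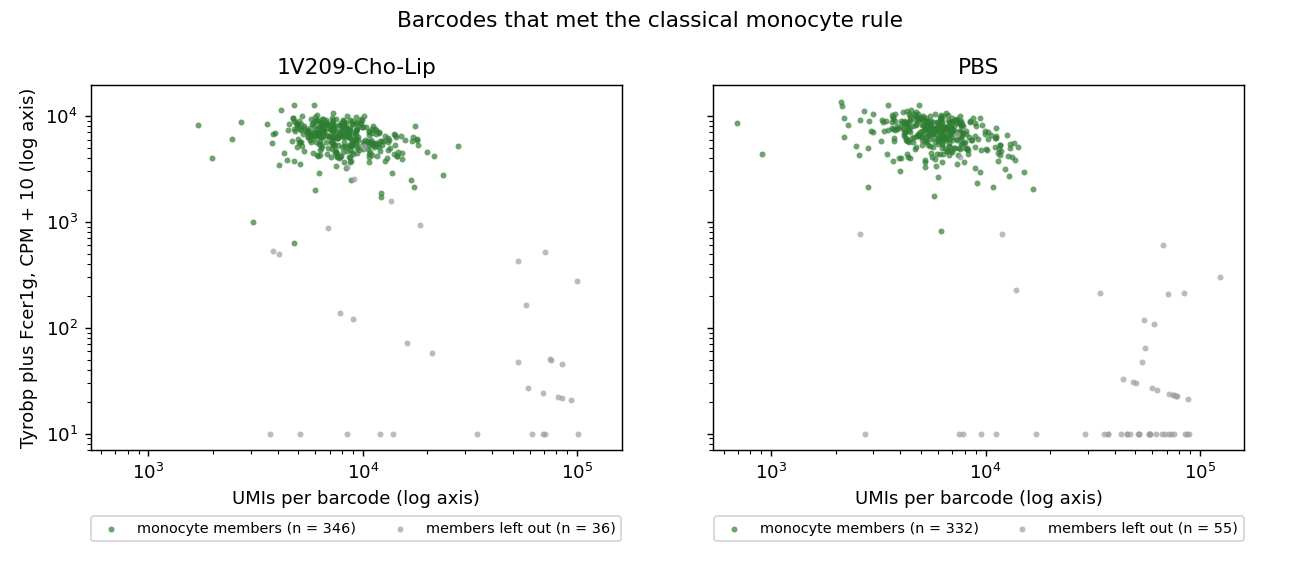
Each point is a barcode that met the rule, with its UMIs on the x axis and the summed CPM of Tyrobp and Fcer1g plus 10 on the y axis, both on log axes, in the 1V209-Cho-Lip (left) and PBS (right) library. The 346 and 332 monocytes (green) form 1 dense cloud in each library, and the 36 and 55 barcodes left out (grey) lie mostly lower and to the right.

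The deposited libraries held 54843992 UMIs in 1V209-Cho-Lip and 58156102 in PBS. Monocytes summed to 2903985 and 2095433 UMIs, with a median of 7702 UMIs per cell in 1V209-Cho-Lip and 5996 in PBS, and a median mitochondrial share of 1.12% and 0.961%. No cell barcode was shared between the 2 sets of monocytes, although 268 were shared among all deposited barcodes. Marker lists of T, NK, B and plasma, and mast cells or basophils summed to between 1.72 and 33.4 CPM in 1V209 monocytes and between 3.82 and 73.5 CPM in PBS monocytes. Other lists were more abundant. The 10 neutrophil markers summed to 3021 CPM in 1V209 and 1090 CPM in PBS monocytes, and the 9 epithelial markers to 3406 and 2310 CPM, with the surfactant gene Sftpc (1753 against 1469.9 CPM) and the airway gene Scgb1a1 (1146 against 382 CPM) most abundant. The 9 macrophage markers summed to 3270 and 1834 CPM, most of it Apoe. The 8 alveolar macrophage markers summed to 1245 and 319 CPM, most of it Chil3. Their other members ranged from Marco (0.689 CPM in 1V209 and 0.477 CPM in PBS monocytes) to Atp6v0d2 (34.1 and 24.3 CPM). Ly6g, Camp and Ngp, which define neutrophils and their precursors, were at 0.689 to 3.44 CPM in 1V209 and 0.477 to 0.954 CPM in PBS monocytes, so the neutrophil sum was mostly S100a8 and S100a9. The 9 fibroblast or mural markers summed to 341 CPM in 1V209 and 217 CPM in PBS monocytes, mostly Gsn, the 6 plasmacytoid dendritic cell markers to 341 and 501 CPM, mostly Bst2, and the 9 nonclassical monocyte markers to 800 and 988 CPM. Endothelial markers summed to 101 and 119 CPM and platelet markers to 38.2 and 32.5 CPM. Red cell markers summed to 42 CPM in 1V209 and 252 CPM in PBS monocytes, mostly the haemoglobin gene Hbb-bs (27.5 against 150.3 CPM). List medians and part of the genes were also computed with free RNA subtracted and with called doublets left out, among the alternatives of the closing section. Apart from these and the cells with fibroblast transcripts, given below with Saa3, the part of RNA from other cells in the results was not tested. Where other cells are set beside the monocytes, they were chosen by marker rules: 87 nonclassical monocytes, 112 interstitial macrophages, 4750 neutrophils, 533 B cells and 1497 endothelial cells in 1V209-Cho-Lip, against 228, 131, 1392, 1154 and 1839 in PBS. The nonclassical monocyte class also held alveolar macrophage transcripts. In it Atp6v0d2 was at 572 CPM in 1V209-Cho-Lip and 350 CPM in PBS, and Ear1 at 258 and 136 CPM. Its values may thus be in part those of other cells.

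As a share of all filtered barcodes, monocytes made up 2.52% (2.27 to 2.80) in the 1V209-Cho-Lip and 2.28% (2.04 to 2.54) in the PBS library. The ratio of the shares was 1.11 (0.949 to 1.29), an interval that holds 1. The 1V209-Cho-Lip library held many more neutrophils, with 4750 barcodes of the neutrophil rule against 1392 in PBS. Among immune barcodes other than neutrophils, monocytes were 7.85% (7.07 to 8.68) in 1V209-Cho-Lip and 4.08% (3.66 to 4.54) in PBS, a ratio of 1.92 (1.65 to 2.24). All barcodes of the rule gave ratios of 1.05 (0.907 to 1.21) and 1.88 (1.62 to 2.19). When 11 more lineage genes also had to be at 0, which left 101 and 155 monocytes, the first ratio was 0.692, so its direction rested on where the rule was drawn.

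The genes of the rule describe the cells and test nothing. Ly6c2, which has the near-identical neighbour Ly6c1 and so can share reads with it, was at 1515 CPM in 1V209 and 1597 CPM in PBS monocytes. Plac8 (2978 against 3144 CPM), Ms4a4c (525 against 545 CPM) and Csf1r, the M-CSF receptor (433 against 434 CPM), were as close. Ccr2 (748 against 641 CPM), the clotting factor subunit F13a1 (1232 against 1075 CPM) and fibronectin Fn1 (1813 against 1572 CPM) had ratios of 1.17, 1.15 and 1.15. Vcan, which encodes the matrix proteoglycan versican and lies on chromosome 13, 89655312 to 89742509 (mm10), stood apart with 352 CPM in 1V209 and 97.8 CPM in PBS monocytes, a ratio of 3.60 (3.09 to 4.20). All 7 of the optional genes were detected in 167 of the 346 1V209 monocytes and in 66 of the 332 PBS monocytes. These counts were not brought to equal depth, and the median was 7702 UMIs per cell in 1V209 and 5996 in PBS monocytes. Just outside the rule, 26 further 1V209-Cho-Lip and 43 PBS barcodes of the same kind had exactly 1 Ly6c2 UMI, against 20 and 46 inside it with exactly 2. Beyond the S100 limit lay 28 barcodes in 1V209-Cho-Lip and 3 in PBS.

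Of 8754 genes with at least 30 UMIs over both libraries, 929 were at least 1.5-fold higher in 1V209 monocytes (10.6%) and 588 at least 1.5-fold lower (6.72%), with a median log2 ratio of -0.01. Among all barcodes of the rule these shares were 16.9% and 16.6% of 11280 genes. The 12 genes furthest above 1, by the bound of the ratio interval nearest 1, were Saa3, Scand1, Il31ra, Tmem160, Cebpd, Eif3f, Med30, Sap30, Mir6236, Iscu, Mtarc2 and Chil3.

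Saa3, an inflammatory serum amyloid A protein with close relatives in its gene cluster (chromosome 7, 46711998 to 46715700), had the widest gap. It gave 787 UMIs in 1V209 and 2 UMIs in PBS monocytes, or 271 (252 to 291) and 0.954 (0.116 to 3.45) CPM, a ratio of 284 (78.3 to 2349). The transcript was uneven among cells: 26.6% of 1V209 and 0.301% of PBS monocytes held a UMI. At an equal depth of 2000 UMIs per cell, which left out 2 shallower cells in each library, the shares were 16% in 1V209 and 0 of 330 cells in PBS, which allows a share of up to 0.909%. B cells, which should lack it, gave 2.12% in 1V209-Cho-Lip and 0 of 656 cells in PBS (up to 0.457%) at that depth, with median depths before thinning of 2619 UMIs in 1V209-Cho-Lip and 2115 in PBS. Summed B cells had 18.6 CPM in 1V209-Cho-Lip and 0 in PBS, where up to 0.955 CPM is allowed. Interstitial macrophages had 591 CPM in 1V209-Cho-Lip and 3.46 CPM in PBS, and nonclassical monocytes 12.2 and 32.2 CPM. In the 1V209-Cho-Lip library Saa3 was therefore abundant in classical monocytes and interstitial macrophages, and scarce in B cells and nonclassical monocytes. In nonclassical monocytes its ratio was 0.379. That ratio rests on few Saa3 UMIs, since the class held 573036 UMIs in 87 cells of 1V209-Cho-Lip and 1024676 in 228 cells of PBS. The 55 Saa3-positive 1V209 monocytes at equal depth had Chil3 at 1609 CPM against 1079.6 CPM in the other 289, Il1rn at 155 against 43.3 CPM and Ace at 27.3 against 100.3 CPM, while Vcan was at 336 against 324 CPM.

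Saa3 also lay in barcodes rich in fibroblast transcripts. The 36 barcodes of the 1V209-Cho-Lip library that met the rule but were left out of the monocytes had Saa3 at 1526 CPM, against 0 UMIs in the 55 of PBS. Among 1V209 monocytes the gene that most separated the Saa3-positive cells was Gsn, listed here as a fibroblast marker, at 609 CPM against 156 CPM, and the fibroblast proteoglycan Dcn was at 90.9 against 0 CPM. A fibroblast transcript (Dcn, Col1a1, Col1a2, Col3a1, Pdgfra or Pdgfrb) was found in 30 of 346 1V209 and 31 of 332 PBS monocytes. In the other 316 and 301 cells Saa3 was at 289 CPM in 1V209 and 1.04 CPM in PBS, a log2 ratio of 7.79 beside 7.83 in all monocytes. Within those 1V209 cells at equal depth, 50 with a Saa3 UMI had Gsn at 100 CPM and the 264 without at 112 CPM, while Il1rn was at 160 against 47.3 CPM and Chil3 at 1720 against 1108 CPM.

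Chil3, the chitinase-like lectin Ym1 made by mouse myeloid cells, had 1145 CPM in 1V209 and 240.0 CPM in PBS monocytes, a ratio of 4.77 (4.34 to 5.25). At equal depth 58.1% of 1V209 and 28.5% of PBS monocytes held a UMI, while B cells gave 4.72% and 4.42%. At this depth a cell without a UMI is not shown to lack the transcript. The ratio was 4.14 in nonclassical monocytes, 1.66 in neutrophils, 1.26 in interstitial macrophages and 1.23 in endothelial cells. Summed B cells had Chil3 at 200 CPM in 1V209-Cho-Lip and 62.7 CPM in PBS, so its summed level was also higher in B cells. Chil3 is also among the alveolar macrophage markers, and the nonclassical class held other transcripts of that list. Cebpd, a C/EBP transcription factor of the acute-phase response, had 215 CPM in 1V209 and 17.2 CPM in PBS monocytes, a ratio of 12.5 (8.94 to 18). Its ratio was 25.8 in B cells, 12.8 in endothelial cells and 14.9 in neutrophils, so Cebpd was higher in every class compared.

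The same held for the other 9 genes of the 12. Il31ra, a subunit of the interleukin-31 receptor, was at 2154 CPM in 1V209 and 189 CPM in PBS monocytes (ratio 11.4), beside ratios of 7.96 in B cells and 9.63 in endothelial cells. Scand1, which encodes a SCAN-domain protein, was at 424 CPM in 1V209 and 6.20 CPM in PBS monocytes (ratio 68.4), beside 83.7 and 44.7 in B and endothelial cells. Eif3f, a subunit of a translation initiation factor, had a ratio of 7.24, beside 8.93 and 6.61. The ratios of Tmem160 (18.8), the Mediator subunit Med30 (10.6), the corepressor subunit Sap30 (9.43), Mir6236 (6.32), the iron-sulfur scaffold Iscu (6.95) and Mtarc2 (7.56) also stood beside ratios of 4.50 to 13.4 in B and endothelial cells. These 9 genes moved with the library in cells of unrelated lineage.

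**Figure D2:**
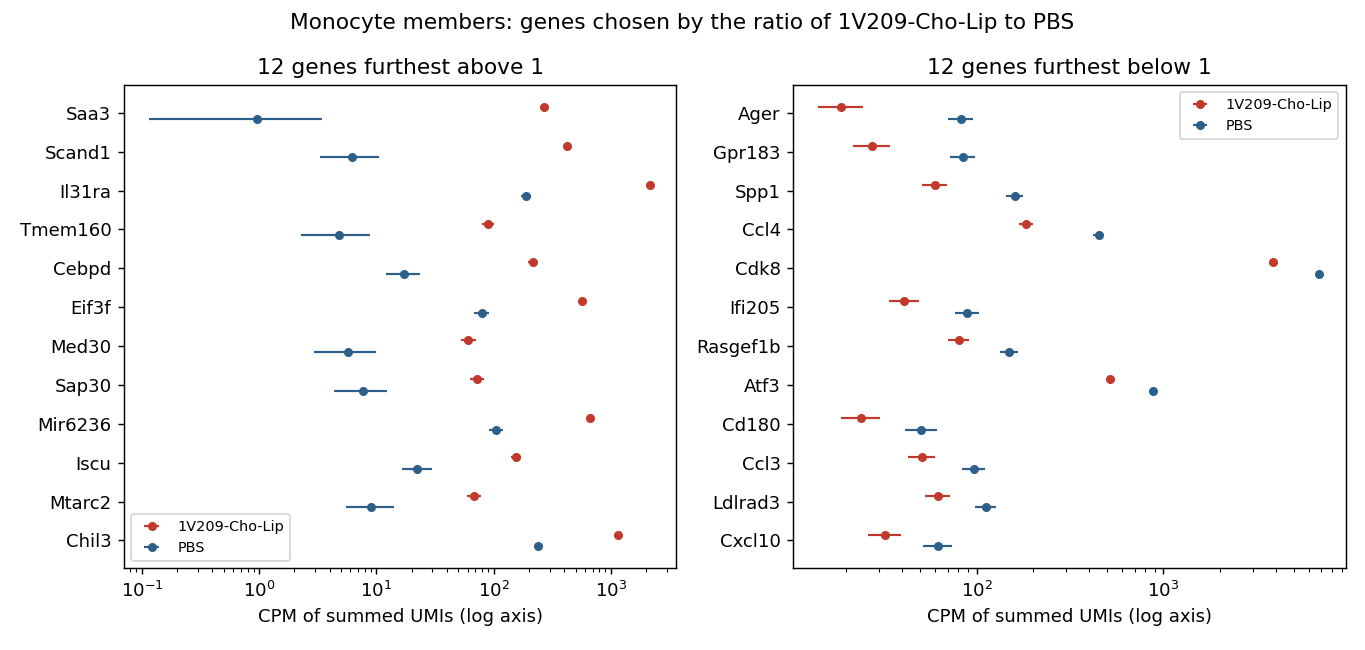
Points give the CPM of the summed monocytes on a log axis, with exact 95% Poisson intervals, for the 12 genes furthest above 1 (left) and below 1 (right) by ratio, 1V209-Cho-Lip in red and PBS in blue. Saa3 is at 271 and 0.954 CPM, and the gaps of the 12 lower genes are much smaller, from 0.231 for Ager to 0.594 for Atf3 as ratios.

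Among the 12 genes furthest below 1, 3 encode chemokines. These genes depended on the barcodes: 8 of the 12 highest but 1 of the 12 lowest, Spp1, were also among the 12 when all 769 barcodes were ranked. Ccl4, an inflammatory CC chemokine (chromosome 11, 83662584 to 83664683), had 184 CPM in 1V209 and 449.5 CPM in PBS monocytes, a ratio of 0.409 (0.367 to 0.455). Ccl3, of the same family, had 51 CPM in 1V209 and 96.9 CPM in PBS monocytes, and Cxcl10, which attracts CXCR3-bearing lymphocytes, 32.4 CPM in 1V209 and 62 CPM in PBS monocytes. A single cell held 33% of the Cxcl10 UMIs in 1V209 and 36.9% in PBS monocytes, and 12% and 21.9% of the Ccl4 UMIs. Without the top cell of each library the CPM were 162 in 1V209 and 352 in PBS for Ccl4, 40.8 and 75.2 for Ccl3, and 21.8 and 39.2 for Cxcl10, so all 3 stayed lower in 1V209 monocytes.

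Single cells weighed more on Spp1 and Ager. The matrix protein gene Spp1 had 59.9 CPM in 1V209 and 159.9 CPM in PBS monocytes, with 63.9% of the PBS UMIs in 1 cell, and without the top cells it was at 51.3 CPM in 1V209 and 58.1 CPM in PBS, short of the fold. Ager, a marker of alveolar type 1 cells, had 18.9 CPM in 1V209 and 82.1 CPM in PBS monocytes, with 44.8% of PBS UMIs in 1 cell, and 14.2 and 45.5 CPM without the top cells. Its log2 ratio was -0.38 without called doublets, which ended the call. The oxysterol receptor Gpr183 was more evenly spread: 27.5 CPM in 1V209 and 84.5 CPM in PBS monocytes, a ratio of 0.326 (0.247 to 0.427), with a UMI in 5.23% and 10.3% of cells at equal depth. Of the rest, Atf3, a stress-induced transcription factor, had 520.3 CPM in 1V209 and 876 CPM in PBS monocytes (ratio 0.594), beside ratios of 0.559 in B cells and 1.72 in endothelial cells. Over all barcodes of the rule Atf3 was at 408 and 395 CPM, a log2 ratio of 0.05. Ifi205, an interferon-inducible gene, had 41 CPM in 1V209 and 89.2 CPM in PBS monocytes, and Cd180, a Toll-like receptor homologue, 24.1 CPM in 1V209 and 50.6 CPM in PBS monocytes. Rasgef1b, Ldlrad3 and Cdk8 had ratios of 0.535, 0.553 and 0.564, with Cdk8 at 0.671 in B cells and 0.828 in endothelial cells.

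**Figure D3:**
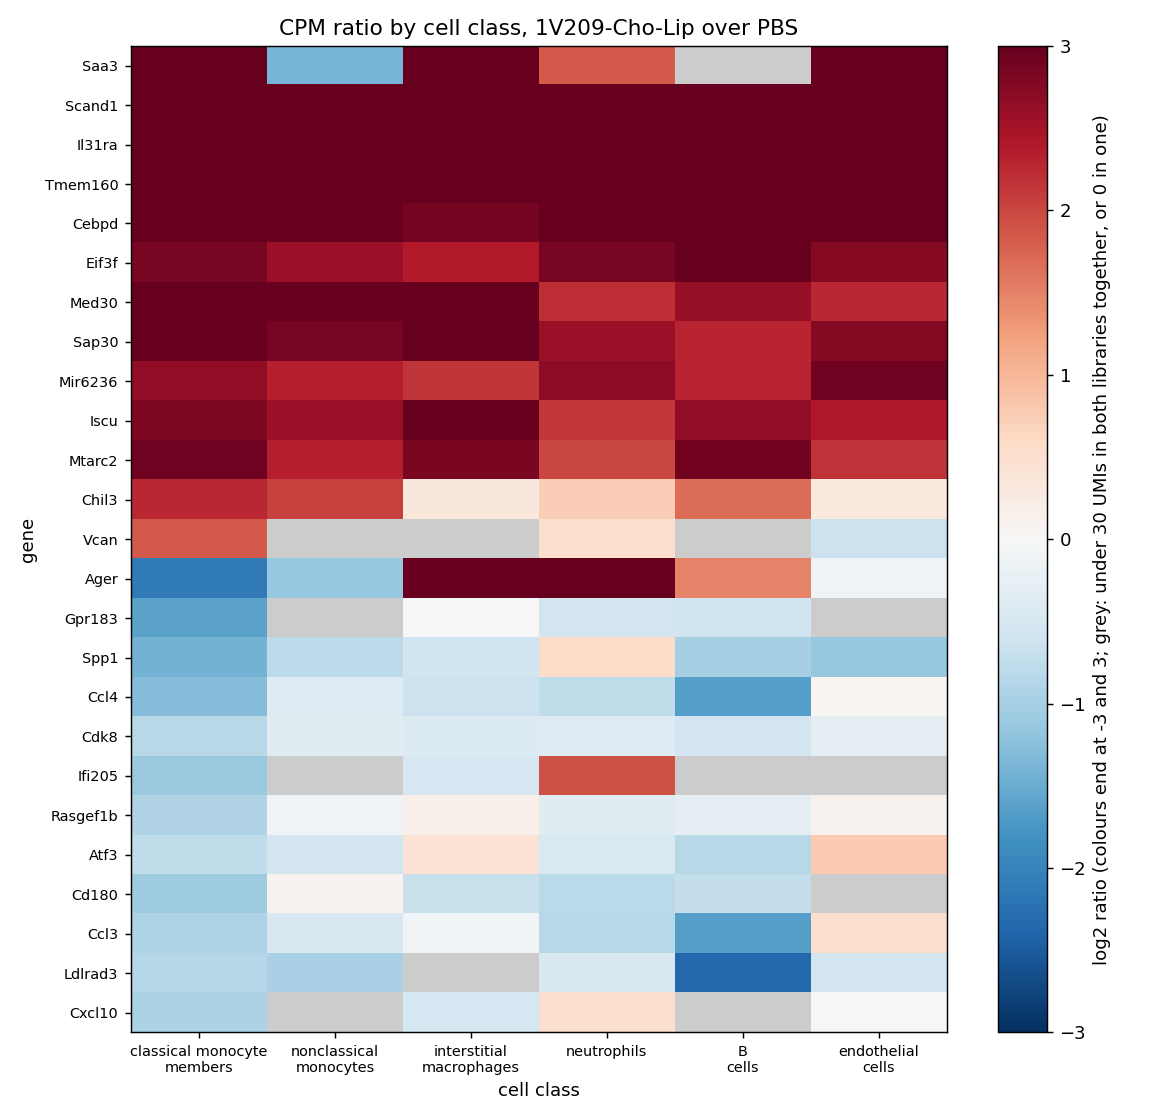
Colours give the log2 ratio of CPM, 1V209-Cho-Lip over PBS, for the 12 genes furthest above 1, Vcan, and the 12 furthest below 1 (rows), in 6 cell classes chosen by rule (columns); grey marks fewer than 30 UMIs in both libraries together or 0 in one. Most of the upper rows are red in every class, whereas Chil3 is near 0 in interstitial macrophages (1.26 as a ratio) and endothelial cells (1.23). Saa3 is blue in nonclassical monocytes, where it rests on few UMIs.

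Type I interferon-stimulated genes were modestly lower in 1V209 monocytes. Of 68 listed genes 65 were measured. Of these 55 had a log2 ratio below 0 and 10 above it, with a median of -0.32 beside -0.01 for all genes. No listed gene was 1.5-fold higher, beside 10.6% of all genes, and 6 of the 65 were 1.5-fold lower, beside 6.72% of all genes, so the list differed through many small steps. The summed list gave a median of 36 UMIs per 2000 in 1V209 cells and 41 in PBS cells, and the quartiles of the cells lay at 28 and 43 in 1V209 and at 31 and 52 in PBS, so the distributions overlapped widely. The list medians were -0.34 in nonclassical monocytes, -0.53 in interstitial macrophages, -0.28 in endothelial cells and -0.16 in B cells. In neutrophils the list did not stand apart: its median was -0.14 beside -0.14 for all genes, with 8 of 63 genes higher and 10 lower. Of all genes measured in neutrophils 11.3% were higher and 15.8% lower. Over all barcodes of the rule the median was 0.09, so the sign depends on the barcodes left out. There 6 genes were higher and 2 lower (9.09% and 3.03%), beside 16.9% and 16.6% of all genes.

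The most abundant listed genes were the antiviral membrane genes Ifitm3 (5104 against 5892 CPM) and Ifitm2 (1120.2 against 861 CPM), Ifi27l2a (2712 against 3257 CPM) and Ly6e (1749 against 2309 CPM). Ifitm2 was the exception among them, higher in 1V209 at a ratio of 1.30, although Ifitm2 and Ifitm3 are alike enough to share reads. Past 1.5-fold lower were the virus-tethering gene Bst2, with 259 CPM in 1V209 and 411 CPM in PBS monocytes (ratio 0.629 (0.570 to 0.695)), the signalling factor Stat2 (49.6 against 78.3 CPM), Phf11b (61.3 against 95.9 CPM), Ifit2 (28.9 against 49.2 CPM), the mitochondrial nucleotide kinase Cmpk2 (20.3 against 34.8 CPM) and the nuclear-body gene Pml (15.8 against 37.2 CPM). Isg15, the ubiquitin-like modifier, was at 396 CPM in 1V209 and 493 CPM in PBS monocytes, and Ifit1 at 24.4 and 24.8 CPM. Oas1g, one of a family of near-identical genes between which reads can be split, had the highest ratio of the list at 1.34 (0.926 to 1.95).

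Promoter windows of this list, from 250 bases before to 50 after the RefSeq start, were searched for the core of the interferon-stimulated response element, GAAA, then 2 bases of any kind, then GAAA, on both strands. The core stood in 27 of 53 listed genes with a window (50.9%), against 1079 of 27018 genes with a window in the whole table (3.99%). Among the 6 genes past 1.5-fold lower 3 held it (50%), and among the listed genes measured but not past the fold 22 of 45 (48.9%). The second motif, TTC, then 3 bases of any kind, then GAA, the core of the interferon-gamma activated site, stood in 17.0% of listed genes and 9.55% of all. The 3 lower genes with the core and 3 genes of the list that did not pass the fold are shown so that their elements can be compared, 5′ to 3′ in the direction of the gene, from RefSeq on GRCm38.p6, cut 20 bases beyond the matches or at the start site, with each match to the core in capitals (as its reverse complement where it lies on the other strand, and with overlapping matches run together).
Bst2 (chr8:71537567-71537622, minus strand): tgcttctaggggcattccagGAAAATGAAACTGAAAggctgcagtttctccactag
Stat2 (chr10:128270256-128270305, plus strand): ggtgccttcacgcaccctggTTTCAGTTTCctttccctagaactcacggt
Phf11b (chr14:59341351-59341400, minus strand): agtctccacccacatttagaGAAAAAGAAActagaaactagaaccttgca
Isg15 (chr4:156200855-156200916, minus strand): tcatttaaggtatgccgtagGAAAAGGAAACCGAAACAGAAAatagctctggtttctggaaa
Ifit1 (chr19:34640765-34640833, plus strand): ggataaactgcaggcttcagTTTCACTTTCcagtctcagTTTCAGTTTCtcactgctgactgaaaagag
Oas1g (chr5:120887614-120887651, minus strand): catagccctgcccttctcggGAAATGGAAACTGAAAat
The matches began 130 bases before the start in Bst2, 222 in Stat2, 50 in Phf11b, 78 in Isg15, 104 in Ifit1 and 18 in Oas1g. Bst2, Oas1g and Ifit1 each carried 2 matches and Isg15 3, while their CPM ratios were 0.629, 1.34, 0.985 and 0.803. A match describes letters and does not show that a factor binds.

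Interferon-gamma targets gave a median of -0.22, with 2 of 31 genes higher and 5 lower (6.45% and 16.1%). Here and for the further lists such paired percentages are the shares of the measured genes that were higher and lower, to be set beside 10.6% and 6.72% of all genes. The chemokine Cxcl11 (2.75 against 19.1 CPM), Cxcl10 (32.4 against 62 CPM) and the guanylate-binding genes Gbp2b (18.6 against 39.1 CPM) and Gbp5 (19.97 against 32.9 CPM) were among the lower ones. Cxcl11 rested on 8 UMIs in 1V209 and 40 in PBS, with 60% of the PBS UMIs in 1 cell, and its log2 ratio was 0.28 over all barcodes of the rule. Socs1, an inhibitor of interferon receptor signalling, was higher at 25.1 CPM in 1V209 and 3.82 CPM in PBS monocytes, with 24.7% of its 1V209 UMIs in 1 cell and ratios of 11 in B cells and 13.9 in endothelial cells.

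The TLR7 pathway, from the receptor and its trafficking and protease partners to MyD88 and interferon regulatory factors, had a median of -0.02. Of 35 measured genes 2 were 1.5-fold higher and 0 lower (5.71% and 0%). Tlr7 itself was at 52 (44 to 61) CPM in 1V209 and 71.1 (60.1 to 83.5) CPM in PBS monocytes, a ratio of 0.731 (0.579 to 0.923). Myd88, its adaptor, was at 106 CPM in 1V209 and 103 CPM in PBS monocytes, and Irf7, the transcription factor that drives interferon genes, at 424 and 471 CPM. The protease genes Ctss (1679 against 1555 CPM) and Ctsb (736 against 784 CPM), the chaperone Hsp90b1 (536 against 639 CPM) and the co-receptor Cd14 (2028 against 1515 CPM) were the most abundant members. Past the fold were Ctsl, a receptor-processing protease (338 against 193 CPM), and Rnaset2b, a lysosomal RNase (22 against 8.11 CPM), whose ratio was 3.17 in B cells. The lowest member was the adaptor Tasl at 24.4 against 34.8 CPM. The median over every barcode of the rule was 0.41.

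NF-kB targets and inflammatory cytokines had a median of 0.09, with 5 of 45 genes higher and 3 lower (11.1% and 6.67%), shares near those of all genes. Il1b, the most abundant of them, had 3515 CPM in 1V209 and 2464 CPM in PBS monocytes, a ratio of 1.43 (1.38 to 1.48) that stays under 1.5. The neutrophil chemokine Cxcl2 (1389.8 against 1183 CPM) and the urokinase receptor Plaur (887 against 803 CPM) differed less, and Tnf was at 29.96 (24 to 37) CPM in 1V209 and 26.2 (19.8 to 34.2) CPM in PBS, intervals that overlap. Higher past the fold were Saa3, Marcksl1 (110.2 against 25.8 CPM), the early-response gene Ier3 (688 against 407 CPM), Cxcl3 (10.7 against 6.20 CPM) and Clec4e, the receptor Mincle (375 against 228 CPM). Lower were Ccl3, Ccl4 and Ccl7, the last on 9 UMIs in 1V209 and 64 in PBS, of which 1 cell held 88.9% in 1V209 and 48.4% in PBS. Over all barcodes of the rule the list median was 0.43.

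Monocyte-made chemokines as a group had a median of -0.11 (0.33 over all barcodes of the rule), with 2 of 18 higher and 5 lower (11.1% and 27.8%). The abundant CC chemokines Ccl6 (1560.3 against 1620.2 CPM) and Ccl9 (509 against 411 CPM) and the CCR2 ligand Ccl2 (94 against 104 CPM) did not pass the fold, and Cxcl14 (13.1 against 2.86 CPM) joined Cxcl3 among the higher ones. In the interleukin-1 axis, with a median of -0.01, 3 of 24 genes were higher and 0 lower (12.5% and 0%). The inflammasome sensor Nlrp3 (306 against 266 CPM), its adaptor Pycard (119.8 against 126 CPM) and the receptor antagonist Il1rn (62.7 against 65.4 CPM) were close, whereas the decoy receptor Il1r2 had 294 CPM in 1V209 and 144 CPM in PBS monocytes, a ratio of 2.04 (1.79 to 2.34), beside 1.95 in B cells and 0.786 in neutrophils. With 11 more lineage genes at 0 its log2 ratio was 0.25, short of the fold. The other higher members were Il18rap (23.8 against 9.07 CPM) and Il1r1 (9.64 against 1.43 CPM), which had 3 UMIs in PBS.

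For MHC class II genes the median was -0.23 in the monocytes and 0.41 over all barcodes of the rule. Of 14 measured genes 1 was higher and 0 were lower past the fold (7.14% and 0%). The invariant chain Cd74 had 3460.1 CPM in 1V209 and 4166 CPM in PBS monocytes, H2-Aa 1294 and 1509 CPM, H2-Ab1 934 and 1112 CPM and H2-Eb1 639 and 763 CPM, with ratios between 0.831 and 0.857. Rfxap, a subunit of the factor that opens class II promoters, was the higher member at 8.26 against 2.86 CPM. The list median was 0.49 in the nonclassical monocyte class and -0.46 in interstitial macrophages, so these classes stood on opposite sides. The nonclassical class also held alveolar macrophage transcripts, and their part in its median was not tested. MHC class I genes had a median of -0.15, with 0 of 24 higher and 1 lower (0% and 4.17%), H2-T24 (63.7 against 106 CPM), one of a family of similar genes between which reads can be split.

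Class II transcripts were concentrated in a minority of cells. At 2000 UMIs per cell, 84 of 344 1V209 monocytes (24.4%) and 98 of 330 PBS monocytes (29.7%) held an H2-Ab1 UMI. In 1V209 the positive cells had Cd74 at 12732 CPM and the negative cells at 350 CPM, and in PBS at 12602 and 347 CPM, so the positive cells differed far more from the negative ones than the libraries did from each other. Fibronectin was lower in the positive cells of both libraries, with 554 against 2104 CPM in 1V209 and 434 against 1931 CPM in PBS. So were Vcan (125 against 390.4 CPM in 1V209, 25.5 against 119 in PBS) and Chil3 (494 against 1381 in 1V209, 122 against 299.6 in PBS). Apoe, Ace and Adgre4 were higher in the positive cells of both libraries. The surfactant genes differed between libraries. In 1V209 the positive cells had more Sftpc (3137 against 387 CPM) and Sftpa1 (500 against 42.3 CPM). In PBS they had less Sftpc (143 against 1379 CPM) and Sftpa1 (20.4 against 99.1 CPM). The epithelial markers were concentrated in a minority of cells. At equal depth they had a median of 1 UMI and a 90th percentile of 4 in both libraries, with means of 4.91 in 1V209 and 3.72 in PBS. The part of epithelial RNA in this split was not tested. The difference between libraries in Chil3 was present on both sides of this split: H2-Ab1-negative cells had Chil3 at 1381 CPM in 1V209 and 299.6 in PBS, and positive cells 494 and 122. Conventional dendritic cell markers summed to 85.1 CPM in 1V209 and 96.9 CPM in PBS monocytes, with Xcr1 at 0 in both (up to 1.03 and 1.43 CPM allowed), and the part of such cells was not tested further.

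Genes of classical monocytes outside the rule were mostly close, with a median of 0.17 and 9 of 53 higher and 1 lower (17% and 1.89%). Lysozyme Lyz2 (16294 against 17462 CPM), vimentin Vim (4470.1 against 4188 CPM), Crip1 (3037 against 3805 CPM) and S100a6 (2848 against 2962 CPM) were the most abundant, and none passed the fold. Lyz2 and Lyz1 are near-identical, so reads can be split between them. Past the fold were Chil3, Lyz1, Ms4a8a (138 against 66.3 CPM), the proteinase Prtn3 (108 against 54.4 CPM), the matrix genes Emilin2 (709 against 441 CPM) and Tgfbi (706 against 442 CPM), Cebpb (65.4 against 41.5 CPM), Sirpb1b (100.2 against 65.4 CPM) and Mcemp1 (279 against 184 CPM). Ly6a, the antigen Sca-1, was the lower one (39.3 against 88.8 CPM). Over all barcodes of the rule the median was 0.74. The list median was also above 0 in every other class compared. It was 0.32 in interstitial macrophages, 0.24 in endothelial cells, 0.19 in nonclassical monocytes, 0.10 in neutrophils and 0.09 in B cells.

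Nonclassical monocyte genes ran the other way, with a median of -0.16, 1 of 27 higher and 6 lower (3.70% and 22.2%). The list median was also below 0 in nonclassical monocytes (-0.36), neutrophils (-0.30) and B cells (-0.17). In B cells 1 of 19 genes was lower, beside 8.23% of all genes. The list median was 0.19 in interstitial macrophages and 0.06 in endothelial cells. Cx3cr1, the fractalkine receptor, had 73 CPM in 1V209 and 126 CPM in PBS monocytes, a ratio of 0.579 (0.481 to 0.697). The surface genes Adgre4 (76.1 against 117 CPM), Ace (74.7 against 113 CPM), Spn (45.5 against 75.9 CPM) and the scavenger receptor Cd36 (35.1 against 65.9 CPM), with the enolase Eno3 (15.2 against 27.2 CPM), were also lower. Nr4a1, the factor that nonclassical monocytes require, was at 908 and 1128 CPM, a ratio of 0.805. Within both libraries Adgre4-positive cells carried more Ace, with 333 against 46.1 CPM in 1V209 and 417 against 81.5 CPM in PBS. Such cells were 14.8% of 1V209 and 18.2% of PBS monocytes at equal depth. Hes1, a Notch target, was the higher member (13.8 against 6.20 CPM). Over all barcodes of the rule the list median was 0.35, on the other side of 0.

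Genes of monocyte maturation to macrophages were mixed, with 5 of 28 higher and 5 lower (17.9% and 17.9%). Apolipoprotein E, Apoe, had 2669 CPM in 1V209 and 1529.5 CPM in PBS monocytes, a ratio of 1.74 (1.67 to 1.82), while its ratio was 1.13 in interstitial macrophages, 1.02 in nonclassical monocytes and 1.09 in B cells. Ctsl, Tmem176a (215 against 141 CPM) and Cd63 (29.3 against 14.8 CPM) were also higher, although Cd63 had a log2 ratio of -0.75 over all barcodes of the rule. Spp1, Cx3cr1, Axl (36.5 against 58.2 CPM), Timd4 (8.61 against 14.8 CPM) and Fabp5 (6.54 against 10.499 CPM) were lower, so the list had no single direction. Dendritic-like monocyte genes had a median of -0.27 (0.34 over all barcodes of the rule), with Cd209a (16.9 against 37.7 CPM), the co-stimulator Cd40 (28.9 against 50.1 CPM) and Irf4 (6.20 against 11.5 CPM) lower and Flt3 (42 against 18.6 CPM) higher.

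**Figure D4:**
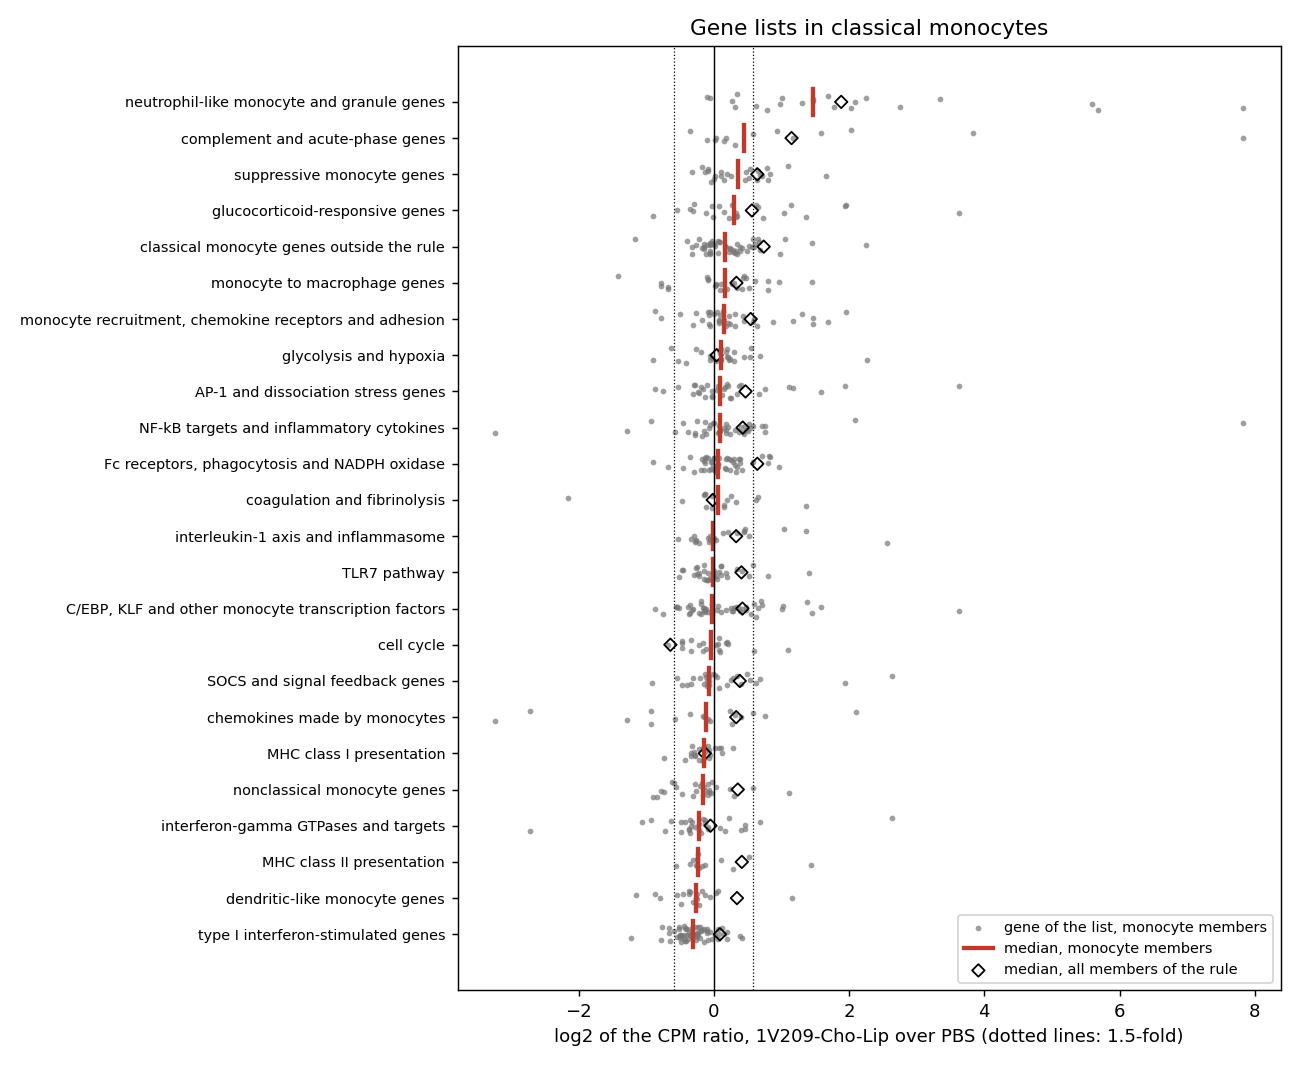
Each grey point is the log2 CPM ratio, 1V209-Cho-Lip over PBS, of 1 measured gene of a list in the monocytes; red bars are list medians, open diamonds the medians over all barcodes of the rule, and dotted lines mark 1.5-fold. The granule gene list has the highest median, 1.47, and the type I interferon list the lowest, -0.32; most diamonds lie to the right of their bar.

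Several receptors that guide monocytes to inflamed tissue were higher in 1V209 monocytes. In the list of recruitment, chemokine receptor and adhesion genes 9 of 37 were higher and 2 lower (24.3% and 5.41%), with a median of 0.14 (0.54 over all barcodes of the rule). The complement C5a receptor C5ar1 had 240.4 CPM in 1V209 and 107 CPM in PBS monocytes, a ratio of 2.25 (1.93 to 2.63), and a log2 ratio of 0.14 when cells were thinned before the rule was applied. The formyl peptide receptors Fpr1 (32 against 8.11 CPM) and Fpr2 (54.4 against 19.6 CPM), the chemokine receptor Ccr1 (197 against 107 CPM), the integrin Itgb1 (172 against 114 CPM) and the matrix proteases Mmp19 (165 against 66.8 CPM) and Mmp8 (169 against 61.1 CPM) were also higher. In neutrophils, which also carry such receptors, the ratios were 1.14 for C5ar1, 1.28 for Fpr1, 1.17 for Fpr2 and 1.09 for Ccr1. Mmp9, a further protease past the fold (20.7 against 6.20 CPM), was at 16.5 CPM in 1V209-Cho-Lip and 6.37 CPM in PBS B cells, so its level and ratio were near the background. B cells had Fpr1 at 12.9 and 9.55 CPM and C5ar1 at 42.9 and 29.9 CPM. The neutrophil markers Retnlg (57.9 against 16.7 CPM) and Cxcr2 (38.9 against 13.8 CPM) were higher in 1V209 monocytes as well, and the part of neutrophil RNA in these receptor and protease genes was not tested. Mmp19 had ratios of 0.412 in nonclassical monocytes, 1.12 in interstitial macrophages, 1.15 in neutrophils and 0.524 in B cells. The abundant adhesion genes Cd44 (1151 against 1048 CPM) and Adgre5 (659 against 742 CPM) did not pass the fold. Cx3cr1 and the integrin Itgb3 (6.20 against 11.5 CPM) were lower.

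Neutrophil and granule genes gave the highest list median, 1.47, with 17 of 22 higher and 0 lower (77.3% and 0%). The calprotectin genes S100a8 (1204 against 284 CPM) and S100a9 (1448 against 584 CPM) led by UMIs, but both were bounded by the rule. At equal depth S100a8 was found in 44.8% of 1V209 and 13.3% of PBS monocytes, and in 43.4% and 10.7% of B cells, so the share among monocytes is near the background. With free RNA subtracted S100a9 came to 0 UMIs in 1V209 monocytes, which turned its direction. The list median was 1.30 in B cells and 2.25 in endothelial cells, above or near the monocyte value. Some members were well above that background: Mmp8 was found in 26.2% of 1V209 and 10.3% of PBS monocytes at equal depth and in 1.42% and 0.152% of B cells, and Wfdc17 had 1458 CPM in 1V209 and 849 CPM in PBS monocytes. Lcn2 (98.1 against 23.9 CPM) and Retnlg, which neutrophils express, were also higher, with Retnlg at 38.2 and 16.6 CPM in B cells. Both were under 10% of their CPM in neutrophils, B cells or endothelial cells of the same library.

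Transcription factors of the monocyte lineage had a median close to 0 (-0.02), with 11 of 53 higher and 2 lower (20.8% and 3.77%). All 5 listed C/EBP genes were among the higher ones: Cebpd, Cebpg (50.3 against 19.1 CPM), Cebpa (48.2 against 29.6 CPM), Cebpb (65.4 against 41.5 CPM) and Cebpe (12.7 against 6.20 CPM). Their ratios in neutrophils were 14.9, 1.59, 1.89, 1.17 and 0.789. The lineage factors Spi1 (611 against 469 CPM), Irf8 (113 against 141 CPM) and Zeb2 (545 against 622 CPM) and the RNA-binding Zfp36 (1385 against 1347 CPM) did not pass the fold. Egr1 (251 against 83 CPM), Ets2 (332 against 164 CPM), Klf3 (222 against 147 CPM), Tfec (18.3 against 11 CPM) and the glucocorticoid target Fkbp5 (69.9 against 45.3 CPM) were higher, and Atf3 and Irf4 lower. With all 769 barcodes the median was 0.42. The list median was 0.54 in endothelial cells, 0.31 in interstitial macrophages, -0.03 in B cells, -0.06 in nonclassical monocytes and -0.11 in neutrophils.

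The 24 measured glucocorticoid-responsive genes had a median of 0.30, with 9 higher and 1 lower (37.5% and 4.17%). The list median was 0.68 in interstitial macrophages, 0.60 in endothelial cells, 0.12 in B cells, 0.11 in neutrophils and -0.03 in nonclassical monocytes. Dusp1, a phosphatase that switches off MAP kinases, had 1661 CPM in 1V209 and 435 CPM in PBS monocytes, a ratio of 3.82 (3.56 to 4.10), beside 4.34 in B cells, 4.55 in endothelial cells and 3.11 in neutrophils. Thbs1 (2142 against 1711 CPM), Anxa1 (769.6 against 638 CPM) and Tsc22d3 (197 against 214 CPM), the last a hallmark glucocorticoid target, did not pass the fold, and Ddit4 was lower (32 against 59.7 CPM). In the list of AP-1 and dissociation-stress genes, 7 of 34 were higher and 2 lower (20.6% and 5.88%), with a median of 0.09. Its median was 0.80 in endothelial cells, 0.44 in interstitial macrophages, 0.15 in B cells, 0.04 in neutrophils and -0.03 in nonclassical monocytes. Fos (2509 against 2562 CPM), Junb (2118 against 1665 CPM) and Btg2 (1730.0 against 1848 CPM) were close. Signal feedback genes had a median of -0.07, with Socs1, Dusp1, Zfp36l1 (163 against 105 CPM) and Zfp36l2 (273 against 170.4 CPM) higher and Dusp10 (12.4 against 23.4 CPM) lower.

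Genes linked to suppressive monocytes of tumours had a median of 0.36, with 9 of 26 higher and 0 lower (34.6% and 0%). Tgfb1, a suppressive cytokine, had 369.8 CPM in 1V209 and 173 CPM in PBS monocytes, a ratio of 2.14 (1.90 to 2.42), and the sialic acid receptor Cd33 122 CPM in 1V209 and 38.7 CPM in PBS monocytes, a ratio of 3.16 (2.48 to 4.08). The amplifying receptor Trem1 (312 against 175 CPM), the lectins Clec4d (252 against 145 CPM) and Clec4e, the hypoxia factor Hif1a (266 against 165 CPM), the ectonucleotidase Entpd1 (329.9 against 212 CPM), Wfdc17 and Cebpb were the other higher members. B cells gave ratios of 1.92 for Tgfb1, 2.35 for Cd33 and 2.28 for Trem1, and a list median of 0.53, so ratios above 1 were also measured outside the myeloid lineage. The abundant members Lgals3 (2020.3 against 2001 CPM) and Cybb (1332 against 1330.0 CPM) were nearly level.

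Effector programs had medians near 0. Fc receptor, phagocytosis and NADPH oxidase genes had a median of 0.06, with 5 of 49 higher, among them Cd300lf (145 against 82.1 CPM), and 2 lower (10.2% and 4.08%). Coagulation genes had a median of 0.06, with 3 of 16 higher, among them F10 (175 against 112 CPM) and F7 (8.26 against 5.25 CPM), and 1 lower, the plasminogen activator Plau (4.48 against 20.5 CPM), or 18.8% and 6.25%. Glycolysis and hypoxia genes had a median of 0.10, with 2 of 28 higher, the glucose transporter Slc2a3 (19.3 against 3.82 CPM) and Hif1a, and 2 lower (7.14% and 7.14%). Cell-cycle genes had a median of -0.05 in the monocytes and -0.64 over all barcodes of the rule. Over all barcodes 20 of 34 were lower (58.8%), beside 16.6% of all genes.

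Complement and acute-phase genes had a median of 0.44, with 6 of 14 higher and 0 lower (42.9% and 0%). The list median was similar in cells of unrelated lineage, at 0.46 in B cells and 0.48 in endothelial cells. It was 0.69 in interstitial macrophages, 0.31 in nonclassical monocytes and 0.09 in neutrophils. Beside Saa3, Lrg1 had 139 CPM in 1V209 and 9.54 CPM in PBS monocytes, a ratio of 14.5 (9.29 to 24.1), with 27.2 in interstitial macrophages and 2.89 in B cells. Lrg1 encodes a leucine-rich acute-phase glycoprotein. Serping1, the C1 inhibitor (20.7 against 6.68 CPM), factor B, Cfb (60.3 against 31.5 CPM), C5ar1 and Lcn2 were higher. For Lrg1 and Lcn2 the higher monocyte CPM was under 10% of their CPM in neutrophils, B cells or endothelial cells of the same library. Across the alternatives, which include subtraction of free RNA, the list median lay between 0.07 and 0.58. The part of free RNA was not tested singly for Lrg1, Lcn2, Serping1 or Cfb. Haptoglobin, Hp, was at 1140.2 CPM in 1V209 and 764 CPM in PBS monocytes, a ratio of 1.49 (1.41 to 1.59), just short of the fold, while C3 (327 against 351 CPM) was close and properdin, Cfp, was lowest (129 against 166 CPM).

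**Figure D5:**
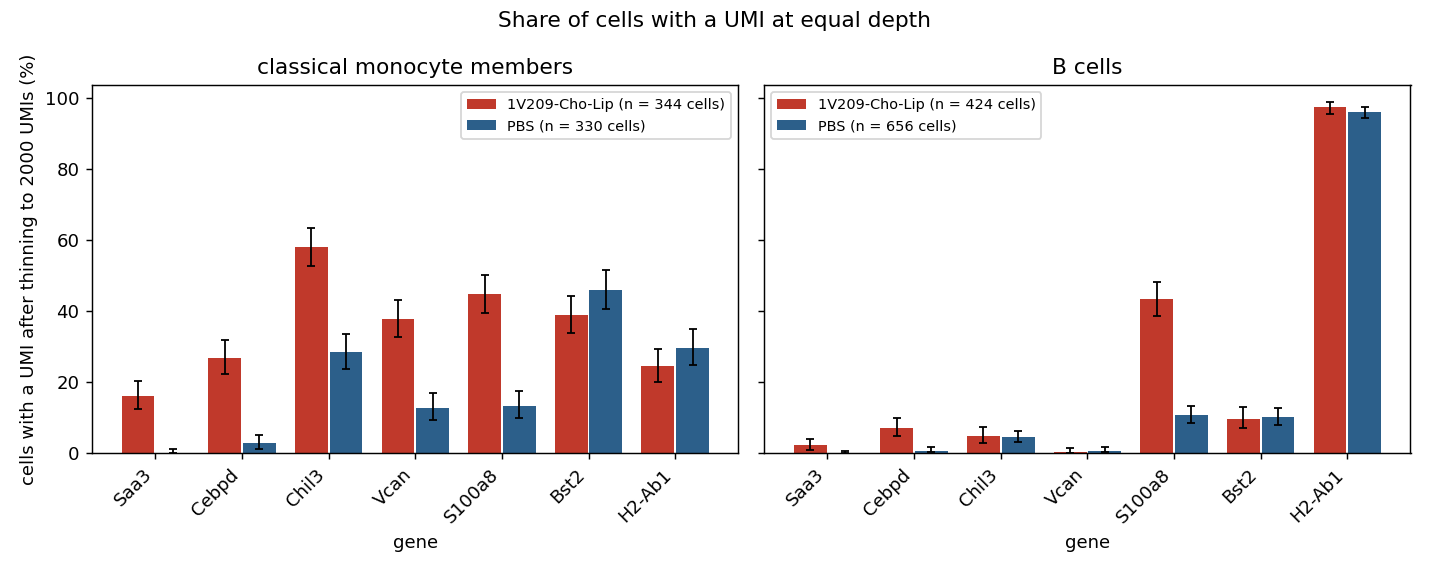
Bars give the percentage of cells with at least 1 UMI of a gene after each cell was thinned to 2000 UMIs, with exact 95% binomial intervals, in monocytes (left; 344 1V209-Cho-Lip and 330 PBS cells) and in B cells (right; 424 and 656 cells). Saa3, Cebpd, Chil3 and Vcan are more frequent in 1V209 monocytes than in PBS monocytes and rare in B cells, whereas S100a8 is as frequent in B cells as in monocytes.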

How the data were processed

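Droplet libraries (10x Chromium) of pooled lungs were counted with Cell Ranger 9.0.1, per the file headers, on mm10, per the submitters' processing notes; no annotation release is named in the labels or headers. The deposited values are whole-number UMI counts per gene and barcode, not normalized by the authors. Counts of the chosen cells were summed per library and scaled to CPM. The CPM denominators were 2903985 UMIs for 1V209-Cho-Lip and 2095433 for PBS. Ratios are 1V209-Cho-Lip over PBS with exact conditional binomial intervals; CPM have exact Poisson and shares exact Clopper-Pearson intervals (95%, counting error only). With 1 library per group no p-value was computed. Log2 ratios use an added 0.5 counts. A gene counted as measured from 30 UMIs over both libraries. Higher or lower means past 1.5-fold.

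The 12 named genes at each end had at least 100 UMIs over both libraries and 50 CPM in one, and were ranked by the ratio bound nearest 1. Genes of the rule were left out. So were 25 genes whose higher monocyte CPM was under 10% of their CPM in neutrophils, B cells or endothelial cells of the same library. Among these were Lrg1, Lcn2, Retnlg, Ace, Cd36 and Ly6a, which are still named as members of lists. For most lists the text gives the 4 most abundant members and the highest and lowest ratio; other list members, and the restriction to monocytes with Tyrobp and Fcer1g, were chosen after values were seen. The members and lists were chosen with earlier results of these data known. Promoters are RefSeq windows on GRCm38.p6. Scrublet in Scanpy 1.11.5 called 20 of 346 and 36 of 332 monocytes as doublets (5.78% in 1V209-Cho-Lip, 10.8% in PBS); they were kept. Free RNA, estimated from genes of other lineages, was 7.41% of UMIs in 1V209 and 10.8% in PBS monocytes. Comparison classes were also chosen by marker rules. SciPy 1.17.1 gave the intervals, under Python 3.11.15 with pandas 2.3.3, NumPy 2.4.6 and Matplotlib 3.10.9, and the ratio code was tested on simulated data. The alternatives are given in the closing section. Values of some genes are not reported here.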

Additional observations from a re-analysis of the deposited data

How the results depend on the processing

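With monocytes alone in place of all 769 barcodes of the rule, 929 genes in place of 1909 were higher and 588 in place of 1874 lower. The list medians were then -0.32 in place of 0.088 for type I interferon genes, 0.086 in place of 0.43 for NF-kB targets, -0.021 in place of 0.41 for the TLR7 pathway, -0.23 in place of 0.41 for MHC class II, 0.17 in place of 0.74 for classical monocyte genes and -0.024 in place of 0.42 for transcription factors. Of single genes, Atf3 (0.045), Cxcl11 (0.28) and Cd63 (-0.75) had log2 ratios of the other sign over all barcodes. Subtracting free RNA gave S100a9 -10.24, since no UMI was left in 1V209 monocytes; that value is set by the added count and is no estimate. The causes were not tested.

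Among monocytes, 412 of the list medians under other alternatives stayed within a spread set from the genes of the list or the counting interval and 20 moved further; of the values of the named genes 2164 stayed within it and 225 moved further. The MHC class II median was -0.38 with S100a8 and S100a9 under 1% of UMIs and 0.55 when cells were thinned before the rule. Over all barcodes it was 0.26 under that 1% limit, 0.54 under a 10% limit, 0.63 with at least 3 Ly6c2 UMIs, 0.27 without the 5% of cells with most UMIs and -0.081 as a mean over cells. More lineage genes at 0 gave share ratios of 0.692 for monocytes and 0.655 for all barcodes, interferon medians of -0.54 and -0.12, and 1231 lower genes among all barcodes. The immune denominator gave 1.92 and 1.88. Thinning before the rule left 156 genes higher and 126 lower, with medians of -0.065 for NF-kB and 0.14 for TLR7, and over all barcodes 182 and 145 genes with medians of -0.35 for interferon, 0.024 for NF-kB, 0.0044 for TLR7, 0.074 for classical genes and 0.11 for transcription factors; 1334 genes in monocytes and 1483 over all barcodes then reached 30 UMIs, against 8754 and 11280. Without cells that held a fibroblast transcript, an alternative chosen after seeing the data, 877 genes were higher and 607 lower. Means over cells of all barcodes gave -0.37 for interferon, 0.12 for NF-kB, -0.041 for TLR7, 0.21 for classical genes and 0.080 for transcription factors. A minimum of 100 UMIs gave 461 higher and 162 lower genes (1187 lower over all barcodes), and a minimum of 10 gave 1515 and 1251. Without the 5% of cells with most UMIs the interferon median was -0.44; across these alternatives it lay between -0.54 and -0.27 in monocytes. Other scalings moved the median gene by at most 0.05 on the log2 scale. Genes under 30 UMIs in a setting were given no value there. No paired analysis was possible because each group is 1 library.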
